A study of Mus musculus with 12 samples.

Results

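Chromatin accessibility was compared between the 4 libraries from cells that received the LSD1 inhibitor GSK-LSD1 and the 8 libraries from cells that did not, which is every library of the series (4 of 12). Membership was read from the treatment labels, not from any measured value. The assay was ATAC-seq, in which a transposase cuts open chromatin and peaks mark where cuts accumulate. All 12 libraries came from mouse granulocyte-monocyte progenitors of C57BL6 bone marrow that carry ER-HOXA9, a fusion of the estrogen receptor's hormone-binding part to HOXA9, and all grew in medium with stem cell factor and 0.5 uM beta-estradiol, which keeps the fusion active. The 4 inhibited libraries were LSD1i (200 nM GSK-LSD1, day 2, 2 libraries) and Combo (200 nM GSK-LSD1 with 5 uM 6MP and 5 uM CER, day 2, 2 libraries). The 8 others were Day0 (untreated, day 0), Vehicle, 6MP (5 uM) and CER (5 uM), the last 3 on day 2, with 2 libraries each. 6MP is mercaptopurine, a purine antimetabolite, and CER is cerulenin, an inhibitor of fatty acid synthase. No library analysed here had 6MP and CER together without GSK-LSD1, and how the 2 biological replicates of a group were made is not given in the sources used here, so the p-values measure the spread between these libraries, which may be technical.

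LSD1, encoded by Kdm1a, is an enzyme that removes methyl groups from histone H3 at enhancers and promoters. It works in the CoREST complex and is brought to myeloid enhancers by the DNA-binding repressors GFI1 and GFI1B. Loss of its activity in myeloid progenitors is known to be followed by differentiation, and enhancers of myeloid genes are among its known sites.

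The 12 peak lists held 42651 to 56398 peaks each, and joining them gave 73147 regions, of which 33367 had a peak in every library and were tested. The measure was the summit signal, the log2 of the pileup at a region's highest summit over the library's smallest background, set to a median of 0 over those 33367 regions in each library. A difference is therefore a log2 difference relative to the typical shared peak. The typical shared summit stood 28.3 to 42.7 times above background in 10 libraries, 16.9 times in 6MP replicate 1 and 23.0 times in CER replicate 2. As a check of the label, a peak overlapped an end of Cd34, Kit, Mpo, Ctsg, Ms4a3, Cebpa and Spi1, all genes of granulocyte-monocyte progenitors, in 12 of 12 libraries. Fcgr3 had one in 1 library, and Elane and Prtn3 had none at their ends, although a region 31 bp from Prtn3 was called in every library. In bulk samples, a changed share of cells with an open site and a changed openness per cell cannot be told apart.

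Of the 33367 regions, 3036 were higher in the 4 LSD1-inhibited libraries (opened, 9.1%) and 4947 were lower (closed, 14.8%), together 23.9%, by limma at a Benjamini-Hochberg adjusted p of 0.05. The opened regions moved further. Their median difference was 0.57 and that of the closed regions was -0.39, beside -0.09 over all tested regions. A difference of at least 1 was found in 332 opened and 29 closed regions, and a difference of at least 2 in 11 opened and 0 closed regions. In 1710 regions (5.12%) every inhibited library was above every other library, and in 1908 (5.72%) every one was below.

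The opened regions were weak sites in the other 8 libraries and the closed regions were strong ones. In each of the 8, the median summit signal over the opened regions lay between -0.86 and -0.59, and in each of the 4 it lay between -0.16 and -0.10. Over the closed regions the 8 lay between 0.61 and 0.86 and the 4 between 0.31 and 0.45. The classes thus did not overlap in either median, as the choice of the regions fixes.

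The number of closed regions depended on the scaling. With depth alone as the scale, which moved the median of all regions to 0.19, limma called 2709 regions opened and 45 closed (98.4% of calls opened, against 38.0% in the main analysis). With the trend on signal strength removed it called 3864 and 2938 (56.8% opened), and with the authors' fold over local background in place of the summit signal it called 324 and 249 (56.5% opened). Under depth scaling and with the trend on signal strength removed as well, 2248 of the 3036 opened and 45 of the 4947 closed regions kept their call. All statements below on closed regions are relative to the typical shared peak unless the text says that depth scaling kept the call. The median summit stood higher over background in the inhibited libraries by 0.27 on the log2 scale, a difference within the spread between libraries (exact two-sided permutation test, p = 0.216, adjusted p = 0.324 over 6 measures), and the part of this in the closed calls was not tested.

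The largest opened regions, with unnamed gene models left out and 1 region per gene, lay beside or in Eva1c, Il1r1, Dock4 and Epha2 (each region carries the name of the coding gene with the nearest end). At the Eva1c region (chr16:90907038-90908117, 1.93 kb from the gene, mm10), the summit signal was 1.01 and 0.99 in LSD1i, 0.95 and 0.80 in Combo, and -2.15 to -1.34 with a median of -1.59 in the 8 others. All 4 inhibited libraries were above all 8 others, by 2.60 ± 0.15 (SE), or 6.04 times (limma, adjusted p = 4.8e-12). The summit pileup there was 234, 272, 310 and 286 in the 4 libraries. In Il1r1, the receptor for interleukin-1, the region chr1:40283840-40284984 lay in intron 2 of 10 by the authors' deposited annotation. Its signal was 0.15 and -0.04 in LSD1i, 0.25 and 0.40 in Combo, and -2.78 to -1.73 (median -2.13) in the others, again with no overlap. The difference was 2.33 ± 0.17 (limma, adjusted p = 1.6e-10).

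Dock4, a guanine nucleotide exchange factor for Rac, had its opened region in intron 1 of 52 by the authors' deposited annotation, with signals of 1.01, 1.10, 1.23 and 1.18 against -1.81 to -0.75 (median -1.13) in the others. The difference was 2.32 ± 0.16 (limma, adjusted p = 3.3e-11). Epha2, an ephrin receptor, was the only one of the 12 largest opened regions so chosen within 1 kb of a RefSeq start site. Its signals were 1.40, 1.19, 1.14 and 0.97 against -1.62 to -0.59 (median -0.94), a difference of 2.24 ± 0.15 (limma, adjusted p = 3.1e-11). The next 8 regions were named for Foxd1, Zranb3, Meox1, Il2, Asap1, Zcchc13, Hopx and Dlg5, with differences of at least 1.94. All 12 were opened under depth scaling too, and 11 of 12, all but Epha2, also by the fold over local background.

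A region 93.7 kb from the gene model 9530068E07Rik, outside the rule for named regions and chosen after its values were seen, was closed by -1.75. Among the regions named by that rule, which leaves out such unnamed gene models, the largest closed one without overlap between classes covered the start of Rnase11, a member of the secreted ribonuclease family (chr14:51047884-51050722). Its summit signal was -1.57 and -2.10 in LSD1i, -2.46 and -2.66 in Combo, and -0.99 to -0.28 (median -0.58) in the others. The inhibited libraries were lower by -1.56 ± 0.18 (limma, adjusted p = 5e-07). Next came a region in Usp7, a ubiquitin protease, with signals of -1.86, -2.29, -2.86 and -2.83 against -1.35 to -0.77 (median -1.01), a difference of -1.42 ± 0.18 (limma, adjusted p = 2e-06). The authors' deposited annotation placed it over exon 3 of 32. Coro2a, which encodes a coronin, had a closed region in intron 1 of 11 by that annotation, with a difference of -1.26 ± 0.16 (limma, adjusted p = 2.7e-06), and 5 of its 8 tested regions were closed. The other 9 were named for Tmod3, Wbp1l, Tceanc2, Pax2, Mapt, Tom1l2, Nmnat2, Prkca and Bri3bp, with differences from -1.37 to -1.10. All 12 kept a closed call under depth scaling, and 6 of 12 by the fold over local background.

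**Figure D1:**
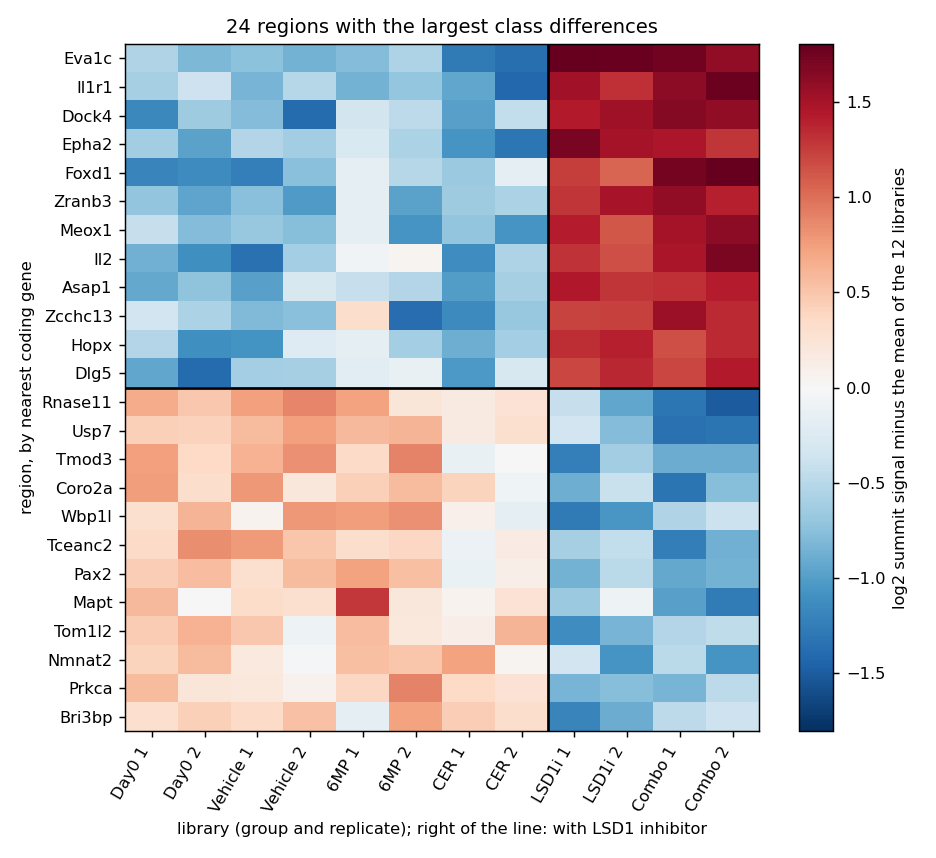
Log2 summit signal minus the mean of the 12 libraries for the 12 largest opened (top) and 12 largest closed (bottom) regions whose classes do not overlap, 1 column per library, with the 4 LSD1-inhibited libraries right of the vertical line. The top block turns from blue to red and the bottom block from red to blue at the line, in LSD1i and in Combo.

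Some genes had several called regions, read beside 9.1% opened and 14.8% closed over all regions. Tcf7l2, a transcription factor of Wnt signalling, had 9 of 10 tested regions opened. Efna5, an ephrin ligand, had 7 of 9 opened, and Itprid2 and Spef2 each had 6 of 7. In other genes the opened ones were a smaller part, as in Zfp386 (8 of 39), Adam6a (7 of 22) and Sptssa (7 of 13). Among closed regions Gins2, a subunit of the replicative helicase complex, had 9 of 18 and the cytoskeletal gene Septin9 had 8 of 16, with none opened in either. Tenm4 had 8 of 18 closed and 3 opened. Over all genes, 2141 of 13800 had an opened region, 3960 a closed one and 484 both.

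On the main scale, opened regions lay far from start sites and closed regions near them. With chromosome 18 left out, for which no start sites were to hand, 4.24% of opened regions (125 of 2948) and 41.4% of closed regions (2000 of 4830) lay within 1 kb of a RefSeq coding start site, beside 26.5% of all tested regions. Over 50 kb from a start site were 43.2% of opened, 15.5% of closed and 25.9% of all tested regions. The shares of closed regions belong to the main scale and were not computed for the 45 that depth scaling kept. Of those 45, only the regions named for Rnase11, Lrfn1, Mcrip1, Vasn and Pdcd1 lay within 1 kb of a coding gene end. The median width was 1154 bp for opened, 1377 bp for closed and 1272 bp for all tested regions.

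**Figure D2:**
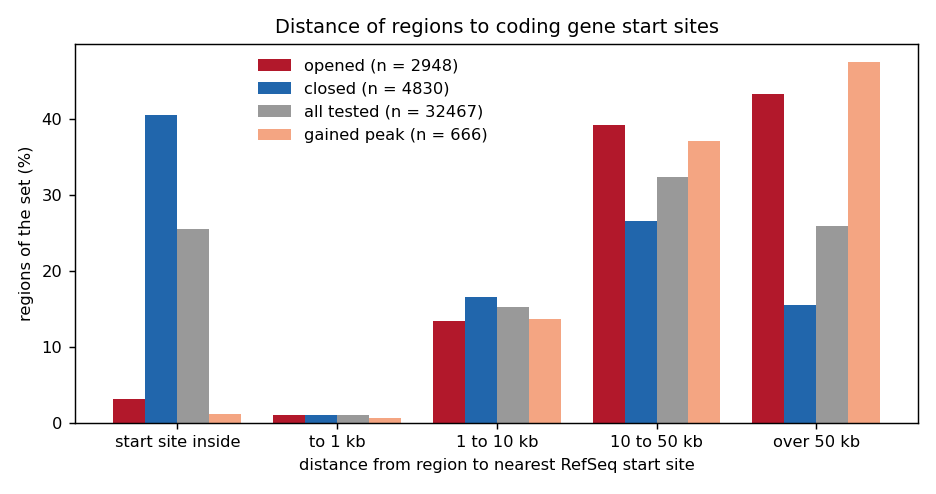
Share of regions (%) by distance to the nearest RefSeq coding start site, for opened, closed and all tested regions and for regions with a peak only in the 4 LSD1-inhibited libraries. Opened regions and gained peaks fill the bin over 50 kb (43.2% and 47.4%), and closed regions exceed all tested regions where a start site is inside the region (40.4% against 25.4%).

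The few promoters inside opened regions had another base composition than those inside closed ones. Of 21262 RefSeq promoters of 300 bases (250 before to 50 after the start, GRCm38.p6), 118 lay in opened, 2568 in closed and 10567 in tested regions. Their median GC content was 53.2%, 62% and 61.7%, and the median number of CG pairs was 6.5, 22 and 22. The promoters printed are those of genes the results turn on: Mmp8 (chr9:7558179-7558478, plus strand) and Gfi1b (chr2:28621933-28622232, minus strand) from opened regions, Rnase11 (chr14:51050114-51050413, minus strand) and Oas1a (chr5:120907476-120907775, minus strand) from closed ones. Capitals mark letters of the searched motifs named after them.
Mmp8: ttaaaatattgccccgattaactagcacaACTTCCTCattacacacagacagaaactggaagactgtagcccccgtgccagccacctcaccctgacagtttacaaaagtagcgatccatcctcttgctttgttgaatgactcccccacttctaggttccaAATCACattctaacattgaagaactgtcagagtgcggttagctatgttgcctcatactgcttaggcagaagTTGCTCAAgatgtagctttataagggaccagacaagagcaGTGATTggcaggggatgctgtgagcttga
Gfi1b: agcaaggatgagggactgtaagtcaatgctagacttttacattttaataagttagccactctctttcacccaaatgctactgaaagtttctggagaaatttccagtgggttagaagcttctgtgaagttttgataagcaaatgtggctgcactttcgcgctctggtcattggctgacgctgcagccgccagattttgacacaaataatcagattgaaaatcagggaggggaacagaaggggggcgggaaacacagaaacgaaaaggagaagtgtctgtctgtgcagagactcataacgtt
Rnase11: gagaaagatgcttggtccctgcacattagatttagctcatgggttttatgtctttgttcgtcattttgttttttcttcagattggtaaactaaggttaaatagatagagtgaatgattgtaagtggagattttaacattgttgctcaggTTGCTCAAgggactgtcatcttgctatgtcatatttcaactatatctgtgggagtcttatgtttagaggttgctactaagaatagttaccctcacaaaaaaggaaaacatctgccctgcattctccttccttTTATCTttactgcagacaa
Oas1a: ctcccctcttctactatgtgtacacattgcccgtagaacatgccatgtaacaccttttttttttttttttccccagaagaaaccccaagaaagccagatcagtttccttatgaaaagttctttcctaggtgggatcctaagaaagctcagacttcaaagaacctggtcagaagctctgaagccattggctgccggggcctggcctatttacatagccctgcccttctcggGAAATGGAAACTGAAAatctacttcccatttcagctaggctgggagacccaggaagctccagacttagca
The Mmp8 promoter held the GFI1 letters AATCAC starting at bases 161 and 272, the PU.1 letters GAGGAAGT at base 30 and the C/EBP letters TTGCNNAA at base 232, counted from the 5′ end and on either strand. The Rnase11 promoter held TTGCNNAA at base 150 and the GATA letters AGATAA at base 282. The Oas1a promoter held the IRF motif at bases 231 and 237, which overlap. The Gfi1b promoter held none of the 13 motifs searched.

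Over all promoters in opened, closed and tested regions, AATCAC on either strand was in 17.8%, 6.93% and 7.89%, and GAGGAAGT in 11.9%, 2.76% and 3.36%. The AP-1 letters TGANTCA were in 11.9%, 3.66% and 4.43%, the RUNX letters TGTGGTT in 10.2%, 3.58% and 3.62%, and the KLF/SP letters GGGCGGGG in 15.3%, 38.0% and 35.2%. The C/EBP letters TTGCNNAA were in 10.2%, 8.64% and 7.90%. The E-box letters CAGCTG were in 21.2%, 13.6% and 14.0% (15.6% of all promoters), and AGATAA in 10.2%, 5.26% and 5.56% (9.65% of all). The C/EBP letters TTGCGCAA and the HOXA9-PBX letters ATGATTTA were in 0 of the 118 promoters in opened regions, and in 0.33% and 0.27% of those in tested regions. Among all 21262 promoters the shares were 9.81% for AATCAC, 3.13% for GAGGAAGT, 6.99% for TGANTCA, 4.71% for TGTGGTT, 23.6% for GGGCGGGG and 10.2% for TTGCNNAA. The opened set is 118 promoters of 106 genes, several promoters share bases, and the sets differ in GC content, so these shares are a description.

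Genes of the LSD1 complex and its DNA-binding partners had 9 opened and 6 closed of 49 tested regions (18.4% and 12.2%, beside 9.1% and 14.8% of all regions; median difference -0.02). With the trend on signal strength removed 2 were closed. Gfi1b, which encodes a repressor partner of LSD1, had 4 of 4 tested regions opened. At its region 9.49 kb from the gene (chr2:28597173-28599963) the summit signal was 1.68 and 1.66 in LSD1i, 1.69 and 1.53 in Combo, and 0.14 to 0.84 (median 0.54) in the others. The 4 were above the 8 without overlap, by 1.12 ± 0.11, or 2.17 times (limma, adjusted p = 1.9e-08). The other Gfi1b regions differed by 1.67 (2.25 kb from the gene), 0.59 (inside the gene) and 0.30 (at its end, with the printed promoter). On the scale of fold over local background the first of these 4 differed by -0.01.

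The partner gene Gfi1 had 2 of 4 tested regions opened. In the one inside the gene the signals were -0.27 and 0.14 in LSD1i, 0.05 and 0.42 in Combo, and -1.12 to -0.24 (median -0.72) in the others, so that 1 LSD1i library lay within the range of the 8. The difference was 0.77 ± 0.15 (limma, adjusted p = 0.00069). Rcor1, which encodes CoREST, had a closed region with a difference of -0.50 ± 0.10 (limma, adjusted p = 0.00043). The single tested region of Kdm1a, the target of the inhibitor, covers its start. Its signal was 0.86, 0.73, 0.93 and 0.97 against 0.60 to 1.23 (median 1.07), and the difference of -0.12 ± 0.11 did not pass the test (limma, adjusted p = 0.43).

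Neutrophil genes of the primary granules, which progenitors already express, had 0 opened and 1 closed of 21 tested regions (0% and 4.76%). Genes of the secondary and tertiary granules, made later in neutrophil maturation, had 2 opened and 1 closed of 15 (13.3% and 6.67%), and over all regions 9.1% were opened and 14.8% closed. The difference between the granule lists was not tested. The closed region of the later granules lay 2.07 kb from Lyz2 (-0.53 ± 0.18, limma adjusted p = 0.036). That of the primary granules lay 0.03 kb from Prtn3 (-0.30 ± 0.10, limma adjusted p = 0.029). Without Day0 neither list had a closed region. The opened ones were at Mmp8, the neutrophil collagenase, and Ltf, lactoferrin. At Mmp8 (chr9:7556429-7558986, over the printed promoter) the summit signal was 0.76 and 0.83 in LSD1i, 1.29 and 1.02 in Combo, and -0.68 to -0.12 (median -0.59) in the others. All 4 were above all 8, by 1.48 ± 0.12, or 2.79 times (limma, adjusted p = 1.4e-09). Ltf differed by 0.42 ± 0.13 (limma, adjusted p = 0.021), with overlapping classes, and lost its call without Day0 (adjusted p = 0.053), without either LSD1i library and with the library name suffix as a term (adjusted p = 0.077).

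Receptors for neutrophil chemotaxis had 4 opened and 3 closed of 38 regions (10.5% and 7.89%), beside 9.1% and 14.8% of all. Fpr1, the formyl peptide receptor, had the largest, 4.34 kb from the gene. The signals were -0.63 and -0.66 in LSD1i, -0.31 and 0.01 in Combo, and -2.41 to -1.21 (median -1.53) in the others. The classes did not overlap and differed by 1.28 ± 0.20 (limma, adjusted p = 4.5e-05). Cxcr4 gave its name to a closed region 239.9 kb away (-0.34 ± 0.10, limma adjusted p = 0.014) and, chosen after its values were seen, an opened one 112.2 kb away (0.31 ± 0.10, limma adjusted p = 0.019). Ptafr, the receptor for platelet-activating factor, had a closed region 9.9 kb away (-0.26 ± 0.08, limma adjusted p = 0.02). Both closed calls were lost with the trend on signal strength removed (adjusted p = 0.11 and 0.27), that of Cxcr4 also without Day0 (adjusted p = 0.056), and that of Ptafr also without LSD1i replicate 1 or Combo replicate 1 (adjusted p = 0.076 and 0.065). Mpo, the myeloperoxidase gene, had 0 of 3 tested regions called. The one with the smallest p had a difference of -0.21 ± 0.12 (limma, adjusted p = 0.18).

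Monocyte and macrophage genes had 13 opened and 5 closed of 61 tested regions (21.3% and 8.20%, median difference 0.06), and dendritic cell genes had 13 opened and 4 closed of 65 (20% and 6.15%, median 0.11). Over all regions 9.1% were opened and 14.8% closed, with a median of -0.09. Under depth scaling 11 regions of each list were opened, and with the trend on signal strength removed 2 monocyte regions were closed. At Cd86, a T cell costimulator of antigen-presenting cells, the signal in the intron was 0.23 and 0.49 in LSD1i, 0.10 and 0.20 in Combo, and -1.80 to -1.02 (median -1.29) in the others. It was higher in all 4, by 1.60 ± 0.15 or 3.04 times (limma, adjusted p = 1.5e-08).

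Cd83, a marker of mature dendritic cells, differed by 1.25 ± 0.19 at a region 19.2 kb away (limma, adjusted p = 3.3e-05). Batf3, a transcription factor of cross-presenting dendritic cells, differed by 0.91 ± 0.19 (limma, adjusted p = 0.00096). The closed regions of the dendritic cell list were those of Flt3 and Bst2. Flt3, read after its values were seen, went both ways. It was closed by -0.48 ± 0.15 and -0.51 ± 0.17 and opened by 0.47 ± 0.10 and 0.29 ± 0.09 (limma, adjusted p = 0.02, 0.033, 0.0012 and 0.026). Bst2 was closed by -0.37 ± 0.09 and -0.42 ± 0.11 (limma, adjusted p = 0.0047 and 0.0057). Msr1, a macrophage scavenger receptor, differed by 1.23 ± 0.18 and Klf4, a transcription factor of monocytes, by 0.74 ± 0.14 (limma, adjusted p = 2.2e-05 and 0.00047). Csf1r, the receptor of the macrophage growth factor, had 1 tested region, which was opened by 0.39 ± 0.09 (limma, adjusted p = 0.0028) but not under depth scaling. Fcgr1, a macrophage Fc receptor, was closed at a region 38.5 kb from it, by -0.78 ± 0.15 (limma, adjusted p = 0.0007). Its nearer called regions, chosen after their values were seen, went both ways. The one 6.55 kb away was opened by 0.69 ± 0.22, and the one 12.6 kb away was closed by -0.51 ± 0.17 (limma, adjusted p = 0.024 and 0.028).

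Peaks at the ends of marker genes were counted in each library beside these lists. Monocyte genes with such a peak numbered 13 to 14 of 26 in the 4 libraries and 11 to 15 in the 8, and dendritic cell genes 11 to 13 of 20 and 9 to 11. For B cell genes the numbers were 4 to 5 of 10 and 5, for T and NK cell genes 3 to 4 of 17 and 2 to 4, for stromal and endothelial genes 1 of 10 in every library. The ranges overlapped in all lists counted, which also included erythroid (4 to 5 and 2 to 5 of 14), megakaryocyte (5 and 4 to 5 of 10) and mast cell, basophil and eosinophil genes (1 to 3 of 15 in both classes). The part of other cell types in the differences was not tested.

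Adhesion and phagocyte receptors had 10 opened and 9 closed of 88 regions (11.4% and 10.2%), beside 9.1% and 14.8% of all. With the trend on signal strength removed 16 were opened and 3 closed, and without Day0 5 were closed. Itgam, which encodes CD11b, the surface marker of myeloid maturation, had 1 of 9 regions opened, 13.1 kb from the gene. Its signals were 0.06 and 0.00 in LSD1i, -0.06 and 0.03 in Combo, and -1.30 to -0.38 (median -0.99) in the others. The 4 libraries lay close together above the 8, by 0.92 ± 0.14 (limma, adjusted p = 3.4e-05). A region inside Cd44, a hyaluronan receptor, and one 14.2 kb from Cd9, a tetraspanin, were higher by 1.33 ± 0.16 and 1.07 ± 0.12 (limma, adjusted p = 1.3e-06 and 3.1e-07). Regions inside Cd9, chosen after their values were seen, were closed by -0.67 ± 0.20 and -0.29 ± 0.10 (limma, adjusted p = 0.018 and 0.041). Itga5, an integrin chain of the fibronectin receptor, was closed 9.3 kb from the gene, by -0.72 ± 0.12 (limma, adjusted p = 7e-05).

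Cytokine and chemokine receptor genes had 19 opened and 10 closed of 110 regions (17.3% and 9.09%, beside 9.1% and 14.8% of all, median 0.05). With the trend on signal strength removed 31 were opened and 7 closed, and without Day0 5 were closed. Besides Il1r1, opened regions were named for Ifngr1, a chain of the interferon gamma receptor, by 1.23 ± 0.15, Tgfbr2, a TGF-beta receptor, by 1.07 ± 0.16, and Il10ra, an interleukin-10 receptor chain, by 0.76 ± 0.12 (limma, adjusted p = 1.5e-06, 2e-05 and 2.7e-05). On the scale of fold over local background Il10ra differed by -0.11. Closed regions, chosen after their values were seen, lay in Il17ra, an interleukin-17 receptor chain, by -0.47 ± 0.10, and at 2 sites of Il4ra, an interleukin-4 receptor chain, by -0.32 ± 0.08 and -0.28 ± 0.09 (limma, adjusted p = 0.00092, 0.0065 and 0.03). Tnfrsf1b, a TNF receptor, had 1 opened region by 0.55 ± 0.13 and 2 closed ones by -0.67 ± 0.18 and -0.45 ± 0.14 (limma, adjusted p = 0.0036, 0.0099 and 0.021), also chosen after their values were seen.

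Progenitor and self-renewal genes had 14 opened and 27 closed of 191 regions (7.33% and 14.1%, median -0.03), shares near those of all regions. With the trend on signal strength removed 29 were opened and 16 closed. Meis1, the HOXA9 cofactor, had 2 of 9 regions closed and none opened. At the one 60.1 kb inside the gene (chr11:18940494-18941771) the signals were -0.84 and -0.71 in LSD1i, -0.57 and -0.46 in Combo, and -0.12 to 0.30 (median 0.11) in the others. The classes did not overlap and differed by -0.76 ± 0.11 (limma, adjusted p = 1.8e-05). Runx1, a transcription factor of blood stem and progenitor cells, had 6 opened and 5 closed of 26 regions. Its closed region 29.9 kb from a gene end had signals of -1.47, -1.74, -1.62 and -2.15 against -1.39 to -0.50 (median -0.78), a difference of -0.89 ± 0.17 (limma, adjusted p = 0.00047), and its opened ones differed by at most 0.64.

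Zfpm1, a GATA cofactor, had 5 of 9 regions closed, and its named one differed by -0.74 ± 0.13 (limma, adjusted p = 0.00016). Cd34 had 1 of 8 regions opened, by 0.27 ± 0.09 (limma, adjusted p = 0.036), a call lost under depth scaling and on leaving out any one of 6 libraries. Kit and Myc had 0 of 7 and 0 of 10 called, and the single Hoxa9 region differed by -0.09 ± 0.13 (limma, adjusted p = 0.64). None of the closed calls of the progenitor list, and none of any other list, was made under depth scaling.

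Myeloid transcription factor genes had 28 opened and 25 closed of 237 regions (11.8% and 10.5%, beside 9.1% and 14.8% of all, median -0.04), and 15 were closed with the trend on signal strength removed. Zeb2, a repressor needed in several myeloid lineages, gave its name to a region 1253 kb away with signals of 0.73 and 0.79 in LSD1i, 1.08 and 1.23 in Combo, and -0.70 to -0.19 (median -0.44) in the others. It was higher without overlap by 1.39 ± 0.12 (limma, adjusted p = 1.5e-09), and at that distance the gene's name only places the region. Nearer called Zeb2 regions, chosen after their values were seen, went both ways. Those at its start sites were closed by -0.52 ± 0.14 and -0.35 ± 0.11 (limma, adjusted p = 0.0084 and 0.022), and one 294 kb away by -0.62 ± 0.15 (limma, adjusted p = 0.0031). Regions 65.6 kb inside the gene and 0.98 kb from it were opened by 0.58 ± 0.16 and 0.59 ± 0.16 (limma, adjusted p = 0.0079 and 0.011). Rara, the retinoic acid receptor alpha gene, was opened over one of its start sites by 0.61 ± 0.09, and Bach2 in its body by 0.90 ± 0.13 (limma, adjusted p = 1.2e-05 and 1.1e-05).

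Cebpa, the factor that directs granulocyte and monocyte fate, had 2 of 6 regions closed and none opened. The named one, 31.1 kb away, had signals of 0.44, 0.35, 0.23 and 0.56 against 0.66 to 1.23 (median 0.96), a difference of -0.55 ± 0.10 (limma, adjusted p = 0.0004). Irf8, a factor of monocyte and dendritic cell fate, had 1 of 8 regions closed (-0.60 ± 0.19, limma adjusted p = 0.025), a call lost without Day0 (adjusted p = 0.066) or without either Combo library. Spi1, which encodes PU.1, and Cebpe, a factor of granule maturation, had 0 of 2 regions called each, with differences of 0.03 ± 0.09 and -0.16 ± 0.09 (limma, adjusted p = 0.81 and 0.19).

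**Figure D3:**
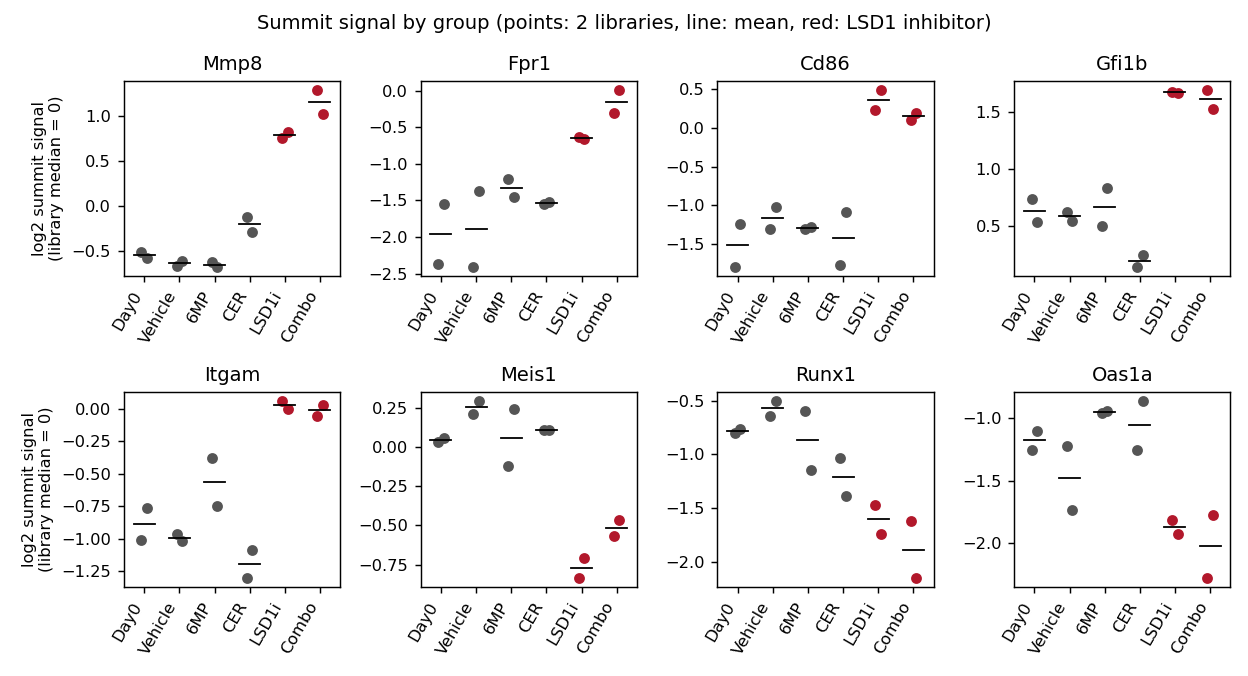
Log2 summit signal (library median 0) by group at 8 named regions, with each library as a point, the mean of 2 as a line and the LSD1-inhibited groups in red. Mmp8, Fpr1, Cd86, Gfi1b and Itgam lie higher, and Meis1, Runx1 and Oas1a lower, in LSD1i and in Combo than in the 8 other libraries, with no overlap between classes.

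Interferon response genes had 0 opened and 7 closed of 16 regions (43.8% closed, beside 14.8% of all regions, median -0.22). At Oas1a, an antiviral oligoadenylate synthetase, the region over the printed promoter had signals of -1.81 and -1.93 in LSD1i, -2.28 and -1.77 in Combo, and -1.74 to -0.86 (median -1.16) in the others. The classes lay close without overlapping, and the difference was -0.78 ± 0.17 (limma, adjusted p = 0.0015). Oasl2, Bst2 and Usp18 were closed at a gene end by -0.50 ± 0.12, -0.37 ± 0.09 and -0.36 ± 0.09 (limma, adjusted p = 0.0028, 0.0047 and 0.0056). With the trend on signal strength removed 5 of the 16 were closed, and under depth scaling none.

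Genes of the pathways hit by the other drugs were read the same way. Purine and one-carbon genes had 8 opened and 8 closed of 65 regions (12.3% each, beside 9.1% and 14.8% of all), and 6 opened and 13 closed without 6MP replicate 1 and CER replicate 2. Among them Psat1, an enzyme of serine synthesis, was opened at a gene end by 0.86 ± 0.14 and Shmt2, a mitochondrial serine hydroxymethyltransferase, was closed at its start by -0.56 ± 0.15 (limma, adjusted p = 6.3e-05 and 0.0071). Fatty acid and sterol genes had 5 opened and 16 closed of 76 (6.58% and 21.1%), and 8 opened and 12 closed with the trend on signal strength removed. In this list Srebf1, a regulator of lipid synthesis, and Abcg1, a cholesterol exporter, were closed by -0.46 ± 0.09 and -0.45 ± 0.09 (limma, adjusted p = 0.00049 and 0.00052).

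The integrated stress response list had 4 opened and 5 closed of 48 regions (8.33% and 10.4%), beside 9.1% and 14.8% of all. Without 6MP replicate 1 and CER replicate 2 its closed regions numbered 12, and with the trend on signal strength removed 1. The promoter of Chac1, a glutathione-degrading enzyme, had signals of 0.42 and 0.31 in LSD1i, 0.58 and 0.85 in Combo, and 0.98 to 1.42 (median 1.25) in the others, a difference of -0.70 ± 0.10 without overlap (limma, adjusted p = 1.7e-05). In the body of Slc7a11, the cystine transporter, a region was opened by 1.13 ± 0.18 (limma, adjusted p = 4.8e-05). The p53 target list had 5 opened and 10 closed of 52 (9.62% and 19.2%) and the cell cycle list 5 and 8 of 67 (7.46% and 11.9%). Of the cell cycle list 8 were opened and 2 closed with the trend on signal strength removed, and 3 were closed without Day0. Fas, a death receptor, and Cdkn2c, a CDK inhibitor, had opened regions 62.0 and 47.8 kb away with differences of 1.23 ± 0.17 and 1.31 ± 0.16 (limma, adjusted p = 7.5e-06 and 9.4e-07). The other called Fas regions, chosen after their values were seen, went both ways. The one at its start was closed by -0.49 ± 0.10, and one 5.64 kb away was opened by 0.47 ± 0.16 (limma, adjusted p = 0.00079 and 0.029). The start of E2f2, an activator of S phase genes, was closed by -0.57 ± 0.12 (limma, adjusted p = 0.00082).

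Lists of other lineages were small, and their shares are set beside 9.1% opened and 14.8% closed over all regions. Mast cell, basophil and eosinophil genes had 3 opened and 1 closed of 19 regions (15.8% and 5.26%), and erythroid genes 4 and 2 of 21 (19.0% and 9.52%). Megakaryocyte genes had 0 and 5 of 18 (0% and 27.8%), and B cell genes 2 and 1 of 23 (8.70% and 4.35%). T and NK cell genes had 3 and 7 of 23 (13.0% and 30.4%), and stromal and endothelial genes 5 and 1 of 22 (22.7% and 4.55%). With counts this small 1 or a few regions set a share, and nothing particular to a list is read from it. Among them a region outside Ms4a1, which encodes the B cell antigen CD20, was opened by 1.25 ± 0.20 (limma, adjusted p = 7.7e-05). The start of Tcf7, a T cell factor, was closed by -0.97 ± 0.18 (limma, adjusted p = 0.00036), with signals of -0.88, -0.85, -0.54 and 0.15 against -0.15 to 0.93 (median 0.54), so that Combo replicate 2 lay among the others.

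**Figure D4:**
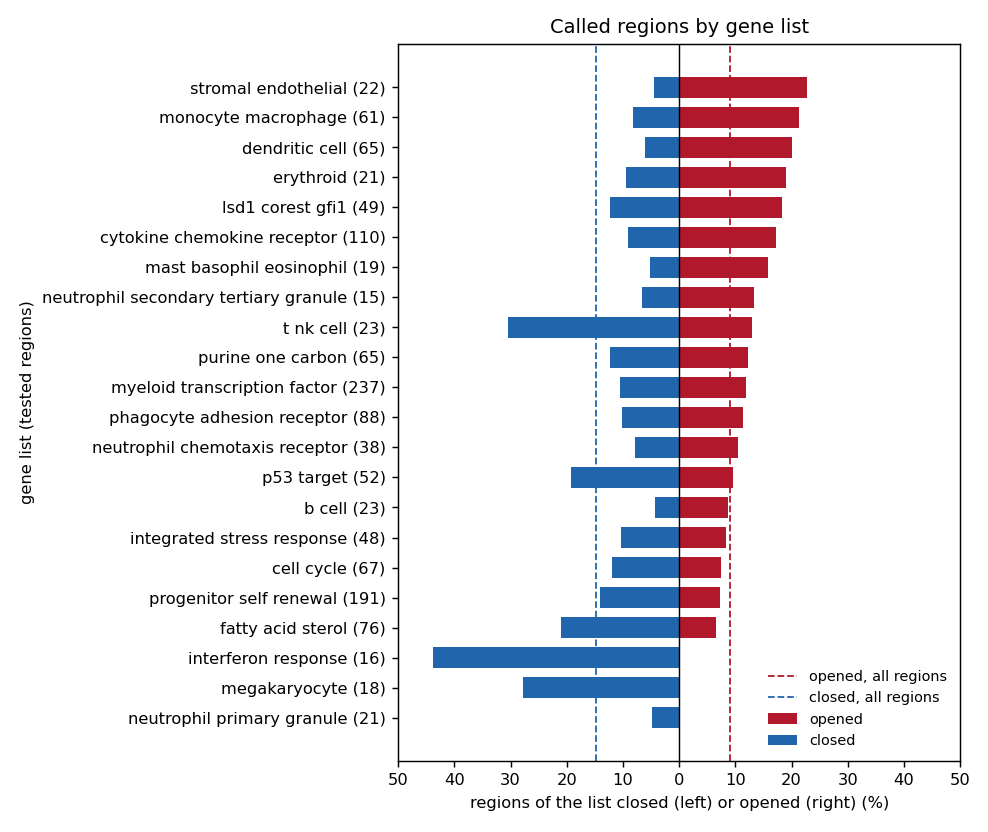
Share of the tested regions of each gene list (number of regions in parentheses) that were opened (red, right) or closed (blue, left), with the shares over all 33367 regions as dashed lines. The highest opened shares are those of the stromal, monocyte and dendritic cell lists (22.7%, 21.3% and 20%), and the highest closed shares those of the interferon, T and NK cell and megakaryocyte lists (43.8%, 30.4% and 27.8%).

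Regions with a peak in some libraries and none in others were outside that test. A peak was called in all 4 inhibited and 0 of the 8 other libraries at 690 of 73147 regions (0.943%), and the reverse held at 8 (0.0109%). The two-sided Fisher exact test gives p = 0.00202 for such a split, its smallest value here, and an adjusted p of 0.212, so 0 regions passed. At an unadjusted p under 0.05 peaks were more frequent in the inhibited libraries at 2010 regions and less frequent at 60. Both pairs of counts are uneven by construction. A gain takes calls in all or most of the 4 libraries, and a loss takes calls in all or nearly all of the 8. With no call in the 4, regions called in 4, 5, 6, 7 and 8 of the others numbered 307, 135, 55, 30 and 8. The counts therefore do not measure how far gains outnumbered losses. Inhibited libraries also had more peaks in all, 54618.5 ± 2613 (SD, n = 4) against 48208 ± 4601 (SD, n = 8), a difference that did not pass the correction (exact two-sided permutation test, p = 0.0343, adjusted p = 0.133). The share of peaks within 1 kb of a start site was 17.3% ± 0.79 (SD, n = 4) against 19.4% ± 1.61 (SD, n = 8; exact two-sided permutation test, p = 0.0444, adjusted p = 0.133).

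A missing call is not a missing signal, since the caller measures a summit against its surroundings. Over the 690 gained peaks the median summit stood 5.05 times above local background, beside 7.25 times for the regions called in all libraries. The authors' deposited tables list 549 of the 690 for LSD1i against Vehicle and 577 for Combo against Vehicle, all as higher, with median log2 folds of 1.47 and 1.71. Those tables come from the same libraries, so the direction follows from how the 690 were chosen and is no further evidence of it. Some of the gained peaks with the highest pileup changed little by those tables. Rilpl2, with a summit pileup of 231 to 304 but only 1.99 to 2.28 times above local background, is listed there at log2 folds of 0.48 and 0.60.

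Others changed more. The gained peak in Cd83 (chr13:43788567-43789546) had a pileup of 141 to 176, 10.3 to 12.9 times above local background, and the authors' deposited tables give 3.54 for LSD1i and 3.56 for Combo, both against the same Vehicle libraries. Cib4 had a pileup of 129 to 192, 7.67 to 11.6 times above background, with 3.91 and 4.08 in those tables. Of the genes in the lists, 33 regions gained a peak. Cd83 and Klf4 had 3 each and Fpr2, a second formyl peptide receptor, had 2. The one 6.66 kb from Fpr2 had a pileup of 61 to 115 and 1.98 and 2.67 in the authors' deposited tables. Single gained peaks were named for Irf4, a dendritic cell factor (2.45 and 3.48 there), Cebpd, a C/EBP factor of mature myeloid cells (2.12 and 2.30), and Cxcr4, a marrow retention receptor (2.20 and 2.16).

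The 8 lost peaks included Hmga1, a chromatin protein gene, with a pileup of 67 to 171 in the 8 libraries, 2.15 to 2.44 times above local background, and log2 folds of -0.88 for LSD1i and -0.58 for Combo in the authors' deposited tables. A lost peak 66.0 kb from Id2, an inhibitor of E proteins, is listed at -0.92 for LSD1i. The called regions named for Id2, read after their values were seen, were all opened. The one 67.2 kb from the gene differed by 0.33 ± 0.10 and the one 45.4 kb from it by 0.70 ± 0.18 (limma, adjusted p = 0.016 and 0.0064). All 8 are listed as lower for LSD1i against Vehicle and 3 for Combo against Vehicle, a direction that the choice of the 8 fixes in the same way.

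The inhibitor effect was then read in 2 comparisons that share no library, LSD1i against Vehicle and Combo against the mean of 6MP and CER. The first called 1167 regions opened (3.5%) and 801 closed (2.4%), together 5.9%, and the second 1747 (5.24%) and 1865 (5.59%), together 10.8% (limma, adjusted p of 0.05, spread estimated over all 12 libraries). Of the 1167 opened in the first, 1159 (99.3%) were also higher in the second, beside 34.2% of all regions, and 840 were called there (72.0% of the 1167 and 48.1% of the 1747). Of the 801 closed, 782 (97.6%) were lower in the second, beside 65.8% of all regions, and 407 were called. No region was called in opposite directions. Across the 33367 regions the 2 differences had a Pearson r of 0.707, a description over regions that share their libraries.

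The difference between the 2 effects was itself tested, and 0 of 33367 regions passed (0%; limma, smallest adjusted p = 0.845), with 1115 at an unadjusted p under 0.05 (3.34%). Eva1c was higher by 2.59 in LSD1i over Vehicle and by 2.66 in Combo over 6MP and CER (limma, adjusted p = 5.2e-10 and 4.2e-12). Mmp8 was higher by 1.43 and 1.58, and Gfi1b by 1.08 and 1.18. Cd83 was higher by 1.59 and 0.79, and Oas1a differed by -0.39 and -1.02 (limma, adjusted p = 0.4 and 0.0024). These counts are less firm than those of all 12 libraries. Depth scaling gave 36 opened and 7 closed regions in the first and 3524 and 6 in the second, and leaving out 6MP replicate 1 raised the closed regions of the second to 7182.

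**Figure D5:**
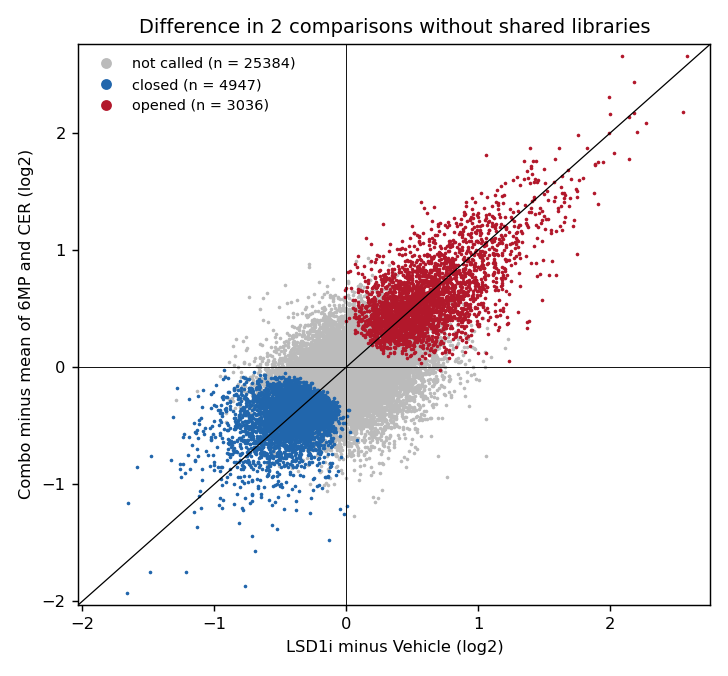
Log2 difference of LSD1i minus Vehicle (x) against Combo minus the mean of 6MP and CER (y), with 1 point per region (n = 33367) and the diagonal as a line, coloured by the call of the 4 inhibited against the 8 other libraries. The opened regions lie mostly in the upper right and the closed regions mostly in the lower left (r = 0.707 over all points).

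Library names carry a letter in 6 of the 12 cases, P on both Day0 libraries and R on Vehicle 1, 6MP 2, CER 1 and Combo 2, whose meaning is not given in the sources used here. Within the libraries without a letter, 3 inhibited against 3 others, 100% of the opened and 100% of the closed regions kept their direction, with median differences of 0.49 and -0.33. Within R, 1 inhibited against 3 others, 99.7% and 99.6% did, with 0.58 and -0.38. These libraries are among those that made the calls, so the shares describe and do not test. Within the libraries without a letter, limma called 1361 regions opened and 952 closed on their own, among them 1339 of the 3036 and 889 of the 4947.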

How the data were processed

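Members and gene lists were chosen with earlier results of these data known. The submitters' processing notes name the build mm10 and these tools: MACS2 2.1.2, DiffBind, Bowtie2, Picard 2.18.26, Trimmomatic 0.38, SAMtools 1.9. Each library has a peak list in which the authors deposited, per summit, a score, a fold ratio over local background, and −log10 p-values and q-values (largest q listed 0.01). The authors deposited tables of LSD1i and of Combo against Vehicle with log2 fold changes and FDR p-values; these were used only to describe regions and for their annotation.

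The pileup at each summit was recovered from its fold and p-value and came out whole (tolerance 0.001 on the −log10 scale) for 100% of summits in every library. It was divided by the library's smallest background (2.44 to 4.55, the measure of depth here) and centred. Peaks were joined at any overlap with bedtools 2.31.1. limma 3.58.1 in R 4.3.3 (trend, 10 residual degrees of freedom) was fitted to the 33367 regions called in all 12 libraries, with Benjamini-Hochberg adjustment over all of them. No sample was dropped or imputed in it. In data simulated for the 4 against 8 comparison over 33367 regions, limma recovered 60, 94, 100 and 98% of 50 regions each changed by 0.5, 1, 1.5 and 2 on the log2 scale, and 10 of 186 calls were false.

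Genes came from RefSeq (GRCm38.p6, 21896 coding genes, 17491 with a start site). Regions take the name of the coding gene with the nearest end, and 441 of 444 genes in 22 lists matched. Named regions were the 12 largest non-overlapping calls in each direction (unnamed gene models left out, 1 per gene), the 10 gained or lost peaks with the highest signal, up to 4 genes per list by adjusted p, and a set given whatever its values; 2 regions named by this rule are not reported here. Of the gained peaks, Rilpl2, Cib4, Hmga1 and Id2 and those at list genes were picked from these after their values were seen, as were genes with several called regions. Motif shares were planned for windows around summits; no genome sequence was used here, so RefSeq promoters were searched instead.

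Alternatives were other scalings, the 6-group fit, subsets of libraries, stricter peaks and thresholds, a replicate block and the name suffix as a term. Lists under other scalings, libraries without a letter only, and subsets by drug were added after seeing the data.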

Additional observations from a re-analysis of the deposited data

Results flagged for a closer look

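Of 238 groups of 4 or 8 values examined (6 measures per library and 113 named regions), 12 (5.04%) held a highest or lowest value far from the rest by Dixon's 95% limit, and chance gives about 1 in 20. LSD1i replicate 1 had the lowest number of peaks of the 4 inhibited libraries, 50733, and the highest share of peaks near start sites, 18.5%. Among the 4 inhibited libraries the outlying summit signals were 0.36 (highest) at Prtn3, 0.77 (lowest) at Cd9, -1.01 (highest) at Col1a1, 0.0262 (lowest) at Impdh1, 0.16 (lowest) at E2f2 and 0.95 (lowest) at Csf1r. Among the 8 others they were -0.82 (highest) at Mapt, 0.17 (lowest) at Bri3bp, 1.14 (highest) at Rara and -1.74 (lowest) at Oas1a. At Mapt the high library was 6MP replicate 1, at Bri3bp the low one was the same library, and at Oas1a it was Vehicle replicate 2.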

How the results depend on the processing

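All 3036 opened and 4947 closed regions kept their direction under a name suffix term, intensity centring and every single library left out. These settings reuse the libraries that made the calls, so this describes and does not test. A replicate block and the 6-group fit leave each difference as it is and change only its SE, so no direction could change there. Opened regions kept their direction under depth scaling too, while 4595 of the 4947 closed ones did. The main counts of 3036 opened and 4947 closed became 2709 and 45 with depth scaling, 3864 and 2938 with intensity centring, 324 and 249 with the authors' fold over local background, 4649 and 4742 when regions called in at least 4 libraries were tested (54552 regions), 1803 and 1909 at an adjusted p of 0.01, 1361 and 952 in libraries without a name suffix, 1574 and 1442 with LSD1i and Vehicle left out, and 1942 and 2288 with Combo, 6MP and CER left out (the last 3 with fewer libraries). Day0 differs from all inhibited libraries in day as well as in drug. Without Day0 the counts were 2461 opened and 3521 closed, with 2387 and 3342 of the main calls kept. With the name suffix as a term they were 2477 and 3547. Leaving out 1 library gave 2122 to 3410 opened and 2517 to 6889 closed, with 2517 without LSD1i replicate 2 and 2870 without Combo replicate 1. Gained peaks numbered 710 to 1089 (1089 without LSD1i replicate 1) and lost peaks 8 to 23 (23 without Combo replicate 2, 21 without 6MP replicate 1, 16 without CER replicate 2, 13 without LSD1i replicate 2).

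LSD1i against Vehicle gave 36 and 7 regions with depth scaling and 391 to 1680 opened and 165 to 1933 closed without 1 library (opened 539 without Vehicle replicate 1, 415 without LSD1i replicate 1 and 391 without LSD1i replicate 2; closed 310, 165 and 172 without these, 1425 without Vehicle replicate 2, and 1923 and 1933 without 6MP replicates 1 and 2). Combo against 6MP and CER gave 3524 and 6 with depth scaling, 2628 opened with intensity centring, 3094 closed with the name suffix as a term, and 632 to 2573 opened and 281 to 7182 closed without 1 library (632 and 281 without Combo replicate 1, 720 and 516 without Combo replicate 2, closed 1213 and 1062 without CER replicates 1 and 2, and 7182 without 6MP replicate 1). The difference of effects had 0 to 2 closed regions, 2 without Vehicle replicate 2. Where a group is left with 1 library, its spread is taken from the other groups.

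The replicate numbers do not pair the libraries: correlations of the deviations of same-numbered libraries ran from -0.344 to 0.246 over pairs of groups, with 2 numbers per group. Among Vehicle, 6MP, CER and Combo, whose libraries differ in the letter R, the signs followed that letter. Pairs with R on the same number had 0.246 (Vehicle and CER) and 0.139 (6MP and Combo). Pairs with R on different numbers ran from -0.344 (Vehicle and Combo) to -0.038 (6MP and CER). What the letter stands for was not tested. The replicate block gave 2940 opened and 4637 closed regions, 1188 and 796 for LSD1i against Vehicle, 1745 and 1765 for Combo and 0 for the difference, and changed no call of a named region.

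Named calls that changed sign, none of them passing there, were Ptafr (0.0115) and Selp (0.0148) with depth scaling and, with the authors' fold over local background, Prtn3 (0.10), Klf4 (-0.0264), Lmo4 (-0.0108), Gfi1b (-0.0108), Bach2 (-0.10), Il10ra (-0.11) and Cd34 (-0.0832). The cause of these changes was not tested. Of the 113 named regions 41 lost their call with depth scaling and 76 with the local fold. Regions with a small pileup limit the precision. A change of 0.5 was found in 60% of simulated regions, where the noise held only the spread within groups.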
